A study of Mus musculus with 36 samples.

Results

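The genes described here are 33 markers of glia and of radial glial progenitors, read from cultured mouse cortical neurons that had been stimulated with brain-derived neurotrophic factor (BDNF) or depolarised with potassium chloride (KCl). They were taken by name from a table of 26709 genes and fell into 4 classes. Of them, 13 are astrocyte genes (Gfap, Aqp4, Aldh1l1, Slc1a3, Slc1a2, S100b, Glul, Gja1, Mlc1, Gpc4, Sparcl1, Sparc and Clu), 14 are genes of radial glia and progenitors (Fabp7, Vim, Nes, Pax6, Hes1, Hes5, Sox2, Sox9, Notch1, Ptprz1, Dbi, Ttyh1, Id1 and Id3), and 5 belong to the oligodendrocyte lineage (Pdgfra, Olig1, Olig2, Sox10 and Cspg4). The remaining gene, Aldoart1, is a retrotransposed copy of an aldolase gene and was left unclassed.

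Radial glia are the stem cells of the embryonic cortex, and they give rise first to neurons and later to astrocytes and oligodendrocyte precursors. Signalling through Notch induces the repressors Hes1 and Hes5, and signalling through bone morphogenetic proteins (BMP) induces the Id proteins, and both keep progenitors undifferentiated. Cultures made from embryonic cortex in serum-free medium are mainly neuronal but hold some progenitors, astrocytes and oligodendrocyte precursors, and a bulk measurement reads all of them together.

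Neurons came from pooled cortices of CD-1 mouse embryos on embryonic day 15 and were kept for 7 days in vitro in Neurobasal medium with B27. All dishes, controls included, were silenced for 2 h with the NMDA receptor blocker AP-5 (100 µM) and the sodium channel blocker tetrodotoxin (TTX, 1 µM), and no genetic change is named in the labels. BDNF (10 ng/ml) or KCl (55 mM) was then given for 1, 6 or 10 h, and the matching controls stayed in AP-5 and TTX for 3, 8 or 12 h in all. Each of the 9 groups had 2 libraries, called A and B here, in RNA sequencing and again in ATAC-seq, which counts reads at accessible DNA.

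RNA libraries held 8508452 to 36699187 gene reads and ATAC libraries 1241829 to 6236439 reads in peaks. The ATAC library with the fewest was KCl 6 h B, against a median of 3553183. The labelled tissue is neuronal, and the summed level of 14 neuronal genes was 81096 to 91041 normalised counts in the 6 control libraries, against 208 to 312 for 12 microglial genes. In the same libraries 13 astrocyte members summed to 27717 to 41020 and 14 radial glial and progenitor members to 31087 to 37606. The sum was 5689 to 6163 for 5 oligodendrocyte lineage members and 21991 to 24414 for 18 other astrocyte genes. Such sums depend on the genes listed and do not give shares of cells. Of the microglial genes P2ry12 and Itgam, and of 11 vascular and mesenchymal genes Cldn5, Flt1, Rgs5 and Kcnj8, lay at or near 0 (mean below 10 normalised counts). Others of that list did not, with control means of 1427 for Col1a1 and 1131 for Col1a2, and the 11 genes summed to 3033 to 4228. In 1 library, KCl 6 h B, the single gene Gm42418 took 3.26% of reads, against a median of 0.111%.

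Levels are given as normalised counts, that is gene reads divided by the size factor of the library, and differences as the log2 of a ratio. Unless another comparison is named, a difference is between the 2 libraries of a stimulated group and the 6 control libraries of all 3 times together. A gene was called higher or lower where limma's moderated test gave a Benjamini-Hochberg adjusted p below 0.1 over the 16209 genes tested (mean level at least 10). The controls were pooled as in the study's own model. Between control 6 h or 10 h and control 1 h, limma called none of the 16209 genes, and so none of the 32 members tested. At an unadjusted p below 0.05 there were 164 and 181 genes in these comparisons, of which 0 were members. Members differed by −0.43 to 0.37 log2 at 6 h and by −0.16 to 0.36 at 10 h. With 2 libraries on each side, this does not show that the controls were alike. With controls of the same time only, 18 member calls were lost.

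Of the 33 members, 32 were tested. The exception was S100b, a calcium-binding protein of mature astrocytes, whose level was 1.04 to 9.79 normalised counts in the controls (median 6.29) and 2.44 to 11.1 in the stimulated libraries. Compared per kilobase of exon in the controls, the highest member was Fabp7, the fatty acid-binding protein of radial glia, at 5223 ± 382 normalised counts per kb (SD, n = 6), above 99.6% of the genes tested. Sparcl1 followed at 1752 ± 131, then Sparc at 1253 ± 478 and Sox2 at 1249 ± 64.1, the last pair not separated beyond their spread. Olig1 (1131 ± 55.4) and Slc1a3 (1081 ± 112) came next and also lay within 1 SD of each other. The filament gene Gfap, a mark of maturing and reactive astrocytes, was only at 61.8 ± 17.2 normalised counts per kb, the 43.2nd percentile, below the radial glial filament genes Vim (853 ± 211) and Nes (421 ± 65.6). Sox10 at 38.2 ± 6.27 and Cspg4 at 11.0 ± 1.11 were the lowest oligodendrocyte lineage genes, and S100b at 3.92 ± 1.95 was the lowest member.

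At 1 h of BDNF few members were called, and from 6 h on most of those called were lower with either stimulus. With BDNF, 5 of the 32 members were called higher and 0 lower at 1 h, where 21.3% of all genes tested were called higher and 19.0% lower. The lower count at 1 h was also 0 at an unadjusted p below 0.05 by limma, and edgeR and DESeq2 called 0. At 6 h 1 member was called higher and 15 lower (22.1% and 21.1% of all genes), and at 10 h 1 higher and 11 lower (21.1% and 19.5%). With KCl, 7 members were higher and 6 lower at 1 h (26.5% and 28.2% of all genes), 3 higher and 14 lower at 6 h (33.4% and 33.1%), and 2 higher and 9 lower at 10 h (29.0% and 28.2%). The median difference of the 32 members was 0.06, −0.24 and −0.29 log2 at 1, 6 and 10 h of BDNF and 0.14, −0.13 and −0.02 log2 with KCl, while that of all genes stayed within 0.01 of 0. The lower share thus stood above the background of all genes at 6 and 10 h of BDNF, and with KCl at 6 h by a smaller margin, and at 10 h of KCl it was level with the background. Without library B of KCl 6 h, 15 members were called there. Of the calls against the controls 9 were lost in 4 or more of the 8 fits that left out 1 library each, namely Dbi and Fabp7 at BDNF 1 h, Id3, Slc1a2 and Slc1a3 at BDNF 6 h, Nes at KCl 1 h, and Fabp7, Sox9 and Sox10 at KCl 6 h. In bulk samples, fewer cells of a type and less RNA per cell cannot be told apart.

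**Figure D1:**
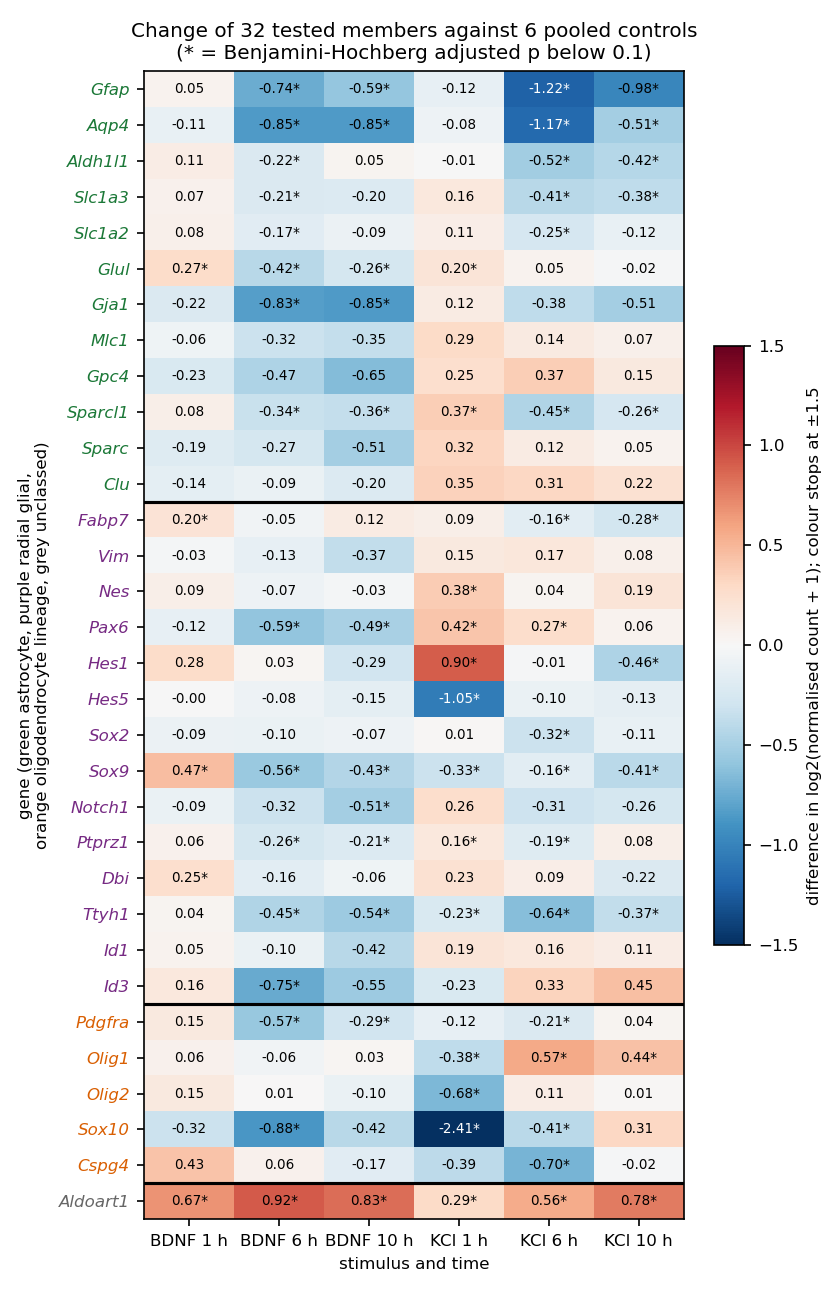
Differences between each stimulated group and the 6 control libraries (colour, log2 fold change) for the 32 tested members, ordered by class, in columns for BDNF and KCl at 1, 6 and 10 h, with called values marked by an asterisk and colour ending at 1.5. The astrocyte block is mostly negative from 6 h on with both stimuli, Sox10 at KCl 1 h is the strongest value at −2.41, and Aldoart1 is called higher in all 6 columns.

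Among the 12 tested astrocyte genes, BDNF left 1 higher and 0 lower at 1 h, 0 higher and 8 lower at 6 h, and 0 higher and 5 lower at 10 h, with median differences of −0.01, −0.33 and −0.36 log2. KCl gave 2 higher and 0 lower, then 0 higher and 6 lower, then 0 higher and 5 lower, with medians of 0.18, −0.32 and −0.19 log2. Of all genes tested, 19.0%, 21.1% and 19.5% were lower at 1, 6 and 10 h of BDNF and 28.2%, 33.1% and 28.2% with KCl. The shares called higher were 21.3%, 22.1% and 21.1%, and 26.5%, 33.4% and 29.0%. Among the called genes the falls were largest in the astrocyte filament gene Gfap and the water channel gene Aqp4 at KCl 6 h, and in Aqp4 and the gap junction gene Gja1 at 6 and 10 h of BDNF. Where a count of 0 is given for the astrocyte or radial glial class in any comparison, limma found 0 genes at an unadjusted p below 0.05 as well, and edgeR and DESeq2 called 0.

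Gfap (ENSMUSG00000020932, chromosome 11, 102887336 to 102900912 on the minus strand of GRCm38) stood at 182, 252 and 380 normalised counts in the lowest, median and highest control library. BDNF libraries measured 242 and 284 after 1 h, 153 and 148 after 6 h and 156 and 181 after 10 h. KCl libraries measured 217 and 247 after 1 h, 119 and 98.4 after 6 h and 143 and 113 after 10 h. Both libraries of every group at 6 and 10 h lay below the lowest control, and those at 1 h lay within the control range. Gfap fell by 0.74 log2 (SE 0.20, adjusted p = 0.00799) at BDNF 6 h and by 1.22 (SE 0.20, adjusted p = 4.89e-05) at KCl 6 h, and at 10 h by 0.59 (adjusted p = 0.0336) and 0.98 (adjusted p = 0.000587).

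Aqp4, the water channel of astrocyte endfeet, was at 396, 588 and 714 in the controls. BDNF libraries measured 503 and 555 at 1 h, 334 and 302 after 6 h and 337 and 296 after 10 h, and KCl libraries 459 and 638, 246 and 262, and 418 and 387. All 4 late BDNF libraries and both KCl 6 h libraries lay below the controls, and at KCl 10 h the ranges overlapped. Aqp4 fell by 0.85 log2 at both BDNF 6 h (SE 0.19, adjusted p = 0.00305) and BDNF 10 h (adjusted p = 0.00342), by 1.17 at KCl 6 h (adjusted p = 8.66e-05) and by 0.51 at KCl 10 h (adjusted p = 0.0387).

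Gja1, the main gap junction protein of astrocytes, spread widely in the controls, at 1723, 2644 and 3369. It was at 2051 and 2335, 1279 and 1604, and 1311 and 1528 after 1, 6 and 10 h of BDNF, and at 2186 and 3511, 1572 and 2426, and 1722 and 1849 after KCl. The 4 late BDNF libraries lay below every control, whereas each KCl group had a library within the control range. It fell by 0.83 (SE 0.27) and 0.85 log2 at BDNF 6 and 10 h (adjusted p = 0.0349 in each), calls that were lost in 1 and 2 of 8 fits that left out 1 library. Glypican Gpc4, which astrocytes secrete to promote synapse formation, was at 571, 960 and 1742 in the controls and between 534 and 1767 in the stimulated libraries. Every stimulated group overlapped the controls, and it passed the test in none of the 6 comparisons.

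The glutamate transporters changed by less. Slc1a3 (GLAST), which clears glutamate and is already made by radial glia, was at 7785, 9159 and 10270 in the controls. It measured 9338 and 9894, 7730 and 8146, and 7875 and 8089 after BDNF, and 9409 and 11230, 6290 and 7593, and 6760 and 7358 after KCl. Only the KCl libraries at 6 and 10 h lay wholly below the controls. It fell by 0.41 log2 (SE 0.09, adjusted p = 0.000771) at KCl 6 h and 0.38 (adjusted p = 0.00203) at KCl 10 h, while the BDNF 6 h call (−0.21, adjusted p = 0.084) was lost in 5 of 8 fits that left out 1 library. Slc1a2 (GLT-1), the transporter of more mature astrocytes, was lower by 0.25 log2 at KCl 6 h (adjusted p = 0.00585) and by 0.17 at BDNF 6 h (adjusted p = 0.0823).

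The other astrocyte genes divided into those that passed and those that never did. Glul, the glutamine synthetase that recycles glutamate, was higher at 1 h with both stimuli (0.27 and 0.20 log2) and then fell with BDNF, by 0.42 at 6 h (adjusted p = 1.78e-05), but at 6 and 10 h of KCl it was at 0.05 and −0.02. The matricellular protein gene Sparcl1 rose by 0.37 log2 at KCl 1 h (adjusted p = 0.000314) and fell at 6 and 10 h of both stimuli by 0.26 to 0.45. Aldh1l1, the folate enzyme often used to mark astrocytes, fell with KCl by 0.52 at 6 h and 0.42 at 10 h (adjusted p = 1.83e-05 and 0.000283), and by 0.22 at BDNF 6 h. Mlc1, Sparc and Clu, like Gpc4, were called in none of the comparisons. With the column letters A and B as a replicate block in the fit, Mlc1 was called at 6 and 10 h of BDNF.

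**Figure D2:**
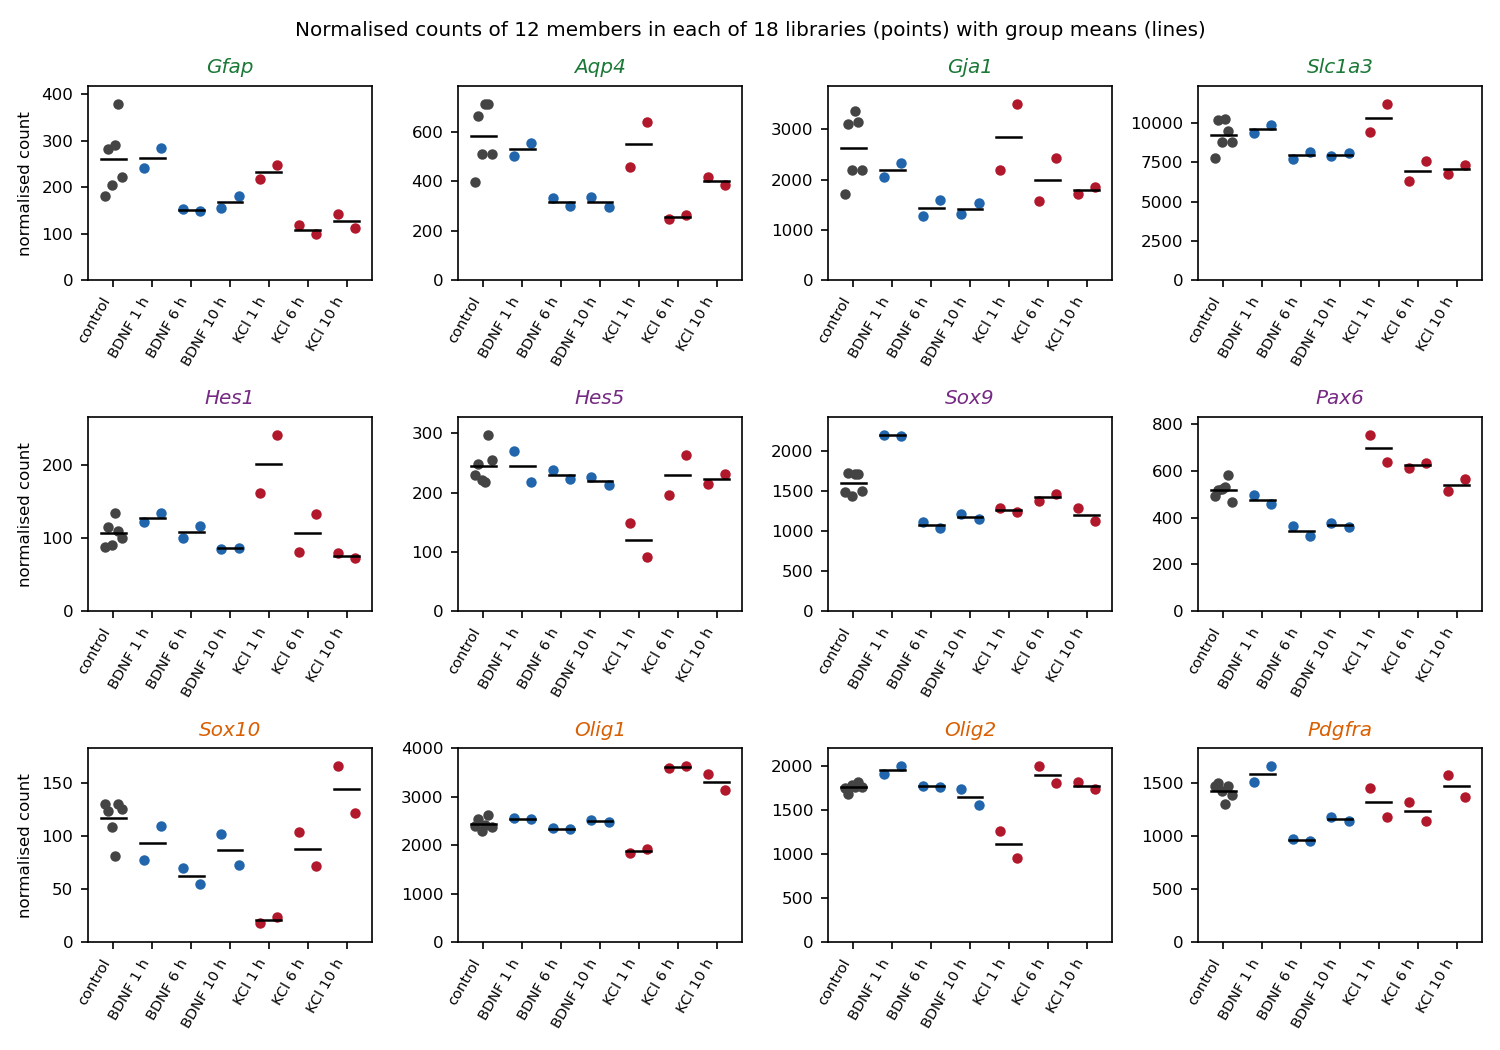
Normalised counts (vertical axes, each from 0) of 12 members in each library, shown as points for the 6 controls and the 2 libraries of each stimulated group by time, with the group means. Gfap and Aqp4 lie below the control points at 6 h, both KCl 1 h points of Hes5 and of Sox10 lie below all controls, and Olig1 is above the controls at KCl 6 h (3601 and 3644) and 10 h (3475 and 3141).

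Several of the uncalled genes had A and B libraries that differed widely. In the control 1 h pair 27 of the 32 members were higher in B, in the control 6 h pair 23, and in the control 10 h pair 4. In these pairs 11, 9 and 8 members differed by more than 0.5 log2, compared with 10.2%, 9.51% and 9.39% of all genes tested, and in the KCl 6 h pair 12 members did, compared with 16%. Gpc4 had the widest pairs, with a median difference of 0.74 log2 between A and B and up to 2.53-fold, followed by Sparc (0.70), Id3 (0.63), Clu (0.56) and Gja1 (0.53). The summed level of the 13 astrocyte genes ranged from 27717 to 41020 normalised counts over the 6 controls, and that of 11 vascular and mesenchymal genes from 3033 to 4228, and the part of culture composition in these differences was not tested.

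**Figure D3:**
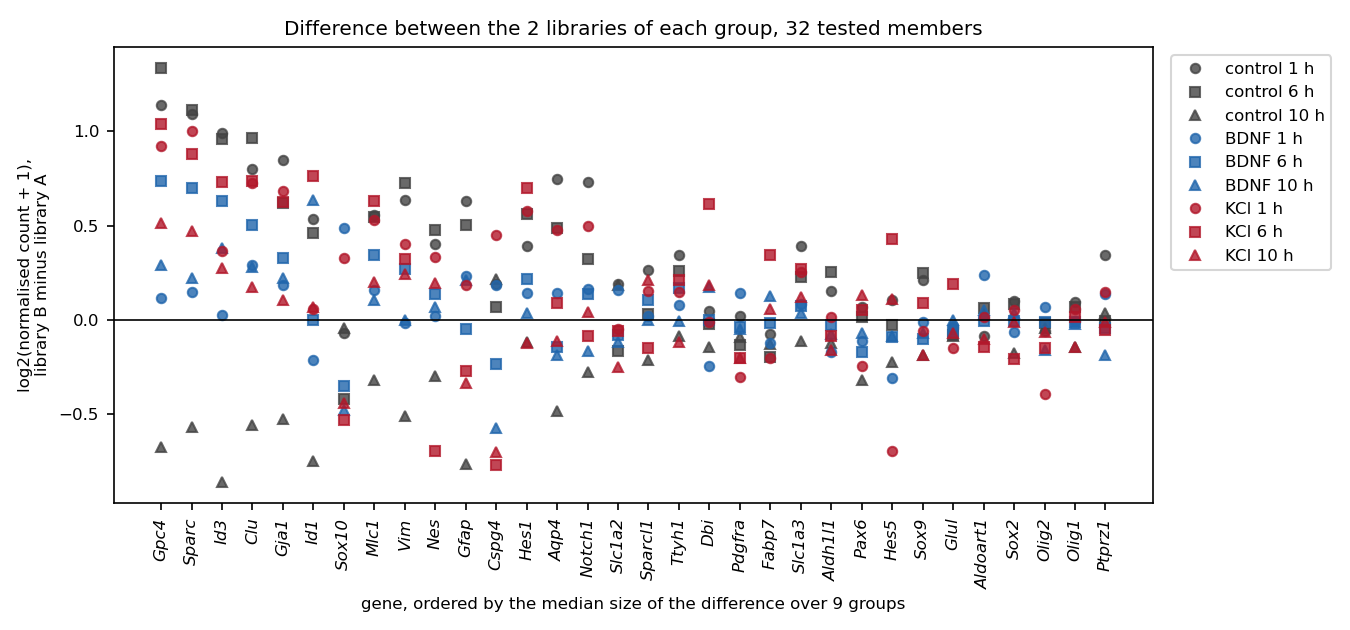
Differences between the B and A libraries of each group (log2 of B over A) for the tested members, with genes ordered by the median size of the difference and a point per group (grey control, blue BDNF, red KCl; circles 1 h, squares 6 h, triangles 10 h). The points sit mostly above 0 in control 1 h, where 27 of 32 members are higher in B, and mostly below 0 in control 10 h, where 4 are.

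Among radial glial and progenitor genes, the direction of change differed from gene to gene. Of the 14, BDNF gave 3 higher and 0 lower at 1 h, 0 and 5 after 6 h and 0 and 5 after 10 h (medians 0.06, −0.14 and −0.33 log2). KCl gave 4 higher and 3 lower at 1 h, 1 and 5 after 6 h, and 0 and 4 after 10 h (medians 0.15, −0.06 and −0.12 log2). Of all genes tested, 21.3%, 22.1% and 21.1% were higher and 19.0%, 21.1% and 19.5% lower at 1, 6 and 10 h of BDNF. With KCl 26.5%, 33.4% and 29.0% were higher and 28.2%, 33.1% and 28.2% lower. The lower counts with KCl were near these shares and do not set the class apart. The Notch targets Hes1 and Hes5 moved in opposite directions at KCl 1 h.

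Hes1 was at 87.7, 105 and 135 normalised counts in the controls, 162 and 242 at KCl 1 h, 81.6 and 133 after 6 h and 79.4 and 73.0 after 10 h. With BDNF it was at 122 and 134, 100 and 116, and 84.8 and 87.0. The KCl 1 h libraries lay above all controls, and the libraries of both stimuli at 10 h below all of them, without a call for BDNF (−0.29). It rose by 0.90 log2 (SE 0.18, adjusted p = 0.000277) at KCl 1 h and was lower by 0.46 (adjusted p = 0.0373) at KCl 10 h.

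Hes5 was at 218, 239 and 298 in the controls and fell to 149 and 92.0 at KCl 1 h, then measured 196 and 264 after 6 h and 214 and 231 after 10 h. With BDNF it was at 271 and 218, 238 and 223, and 226 and 213. The KCl 1 h pair lay below every control and every other group had a library within the control range or at its edge. The difference at KCl 1 h was −1.05 log2 (SE 0.15, adjusted p = 9.08e-06), and no other comparison with controls passed. Notch1, the receptor itself, was lower at BDNF 10 h alone (−0.51, adjusted p = 0.0336).

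The promoter of Hes5 and a promoter of the progenitor factor Pax6 are shown. Their genes changed at KCl 1 h, and they hold the letters of motifs tied to Notch and to cyclic AMP response (CRE) factors. In both, 250 bases before a RefSeq gene start on GRCm38.p6 are printed 5′ to 3′, and capitals mark the matches. The searched letters, on both strands, were GTGGGAA for RBPJ, the DNA-binding partner of Notch, and TGACGTCA for the CRE.
Hes5 promoter, chr4:154960673-154960922, plus strand: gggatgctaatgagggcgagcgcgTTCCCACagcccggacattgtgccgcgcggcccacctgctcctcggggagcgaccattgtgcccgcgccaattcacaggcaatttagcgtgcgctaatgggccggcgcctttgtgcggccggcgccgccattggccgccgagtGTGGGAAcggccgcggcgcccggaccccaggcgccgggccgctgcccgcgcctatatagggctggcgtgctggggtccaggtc
Pax6 promoter, chr2:105668646-105668895, plus strand: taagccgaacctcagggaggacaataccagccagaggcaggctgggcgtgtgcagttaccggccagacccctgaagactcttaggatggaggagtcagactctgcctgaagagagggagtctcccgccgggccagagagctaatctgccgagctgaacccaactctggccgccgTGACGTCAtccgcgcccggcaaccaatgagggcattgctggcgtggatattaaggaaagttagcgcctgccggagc
In Hes5 the RBPJ letters began 226 and 83 bases before the start, and in Pax6 the CRE letters began 76 bases before it. A further Pax6 promoter, at chr2:105682213-105682462, did not hold the CRE letters. Of 32851 promoters of 300 bases (250 before to 50 after the start), 6.38% held the RBPJ letters, 1.79% the CRE letters, 7.81% the AP-1 letters TGANTCA, 5.55% the EGR letters GCGNGGGCG and 42.5% the Hes N-box CACNAG. Of 26 promoters that matched 24 of the 33 members, 1, 1, 1, 1 and 14 held them. Promoters of Aldoart1, Aqp4, Clu, Hes1, Id1, Olig1, Sox10, Sox9 and Sparcl1 had no match by symbol. A match is a description of letters and not of a bound site.

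Pax6, which specifies cortical progenitors, was chosen for its values after they had been seen. It was at 466, 520 and 582 in the controls, 496 and 458, 363 and 323, and 378 and 360 with BDNF, and 754 and 637, 612 and 634, and 515 and 564 with KCl. The late BDNF libraries were below and the KCl 1 and 6 h libraries above all controls. It fell with BDNF by 0.59 log2 (SE 0.09, adjusted p = 1.25e-05) at 6 h and 0.49 at 10 h (adjusted p = 0.000174), and rose with KCl by 0.42 at 1 h (adjusted p = 0.00033) and 0.27 at 6 h (adjusted p = 0.0103).

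Sox9, a factor needed for glial fate and for neural stem cells, was also singled out after its values were seen, since it was called in all 6 comparisons. Against controls of 1434, 1597 and 1724 it measured 2197 and 2184 at BDNF 1 h, 1115 and 1040 after 6 h and 1204 and 1146 after 10 h. With KCl it was at 1290 and 1240, 1375 and 1461, and 1279 and 1122. The BDNF 1 h libraries lay above every control and the libraries of the other groups below, apart from 1 of the KCl 6 h pair. It rose by 0.47 log2 (SE 0.08, adjusted p = 4.89e-05) at BDNF 1 h and fell by 0.56 (adjusted p = 5.5e-06) at BDNF 6 h, while at KCl 1 h it fell by 0.33 (adjusted p = 0.00114).

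Fabp7, the highest member, was at 5694, 6587 and 7008 in the controls, 7821 and 7180, 6325 and 6254, and 6776 and 7404 with BDNF, and 7425 and 6443, 5162 and 6552, and 5255 and 5477 with KCl. Only BDNF 1 h lay wholly above and KCl 10 h wholly below the controls. The difference was 0.20 log2 (adjusted p = 0.0686) at BDNF 1 h and −0.28 (SE 0.08, adjusted p = 0.00843) at KCl 10 h, and the call of −0.16 at KCl 6 h turned to 0.01 without library A of that group. Vim, the filament gene shared by radial glia and astrocytes, was at 2929, 3947 and 5415 in the controls and 3052 to 5017 in the stimulated libraries, within the control range in every library, and passed no comparison. Nes, a further filament gene of progenitors, was called once, at KCl 1 h (0.38, adjusted p = 0.0951).

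Ttyh1, a chloride channel-related membrane protein of radial glia, was at 3086, 3531 and 3911 in the controls. It measured 3532 and 3728, 2432 and 2737, and 2420 and 2413 with BDNF, and 2844 and 3150, 2100 and 2435, and 2823 and 2607 with KCl. The 8 late libraries all lay below the controls. It fell by 0.45 and 0.54 log2 at 6 and 10 h of BDNF (SE 0.08, adjusted p = 0.000261 and 4.3e-05) and by 0.64 and 0.37 with KCl (adjusted p = 1.19e-06 and 0.000843). On the opposite strand its exons overlap D030047H15Rik and 9430041J12Rik, whose mean levels were 48.9 and 18.9, and it is not stated whether counting used the strand.

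Id3, a repressor partner induced by BMP, was at 126, 201 and 273 in the controls, 90.1 and 140 at BDNF 6 h and 113 and 148 at 10 h, and 185 and 308 at KCl 6 h and 236 and 285 at 10 h. At 1 h it was at 210 and 214 after BDNF, and 142 and 183 after KCl. Every group overlapped the controls. It was lower by 0.75 log2 (SE 0.33, adjusted p = 0.0977) at BDNF 6 h, a call near the threshold, and Id1 passed in none of the comparisons. Ptprz1, a phosphatase receptor of radial glia and precursors, stayed within 0.26 log2 of the controls in every group, with called differences of −0.26 and −0.21 at 6 and 10 h of BDNF and 0.16 and −0.19 at 1 and 6 h of KCl. The stem-cell factor Sox2 was lower at KCl 6 h (−0.32, adjusted p = 0.00014), and Dbi, an acyl-CoA-binding protein, was higher at BDNF 1 h (0.25, adjusted p = 0.0907).

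**Figure D4:**
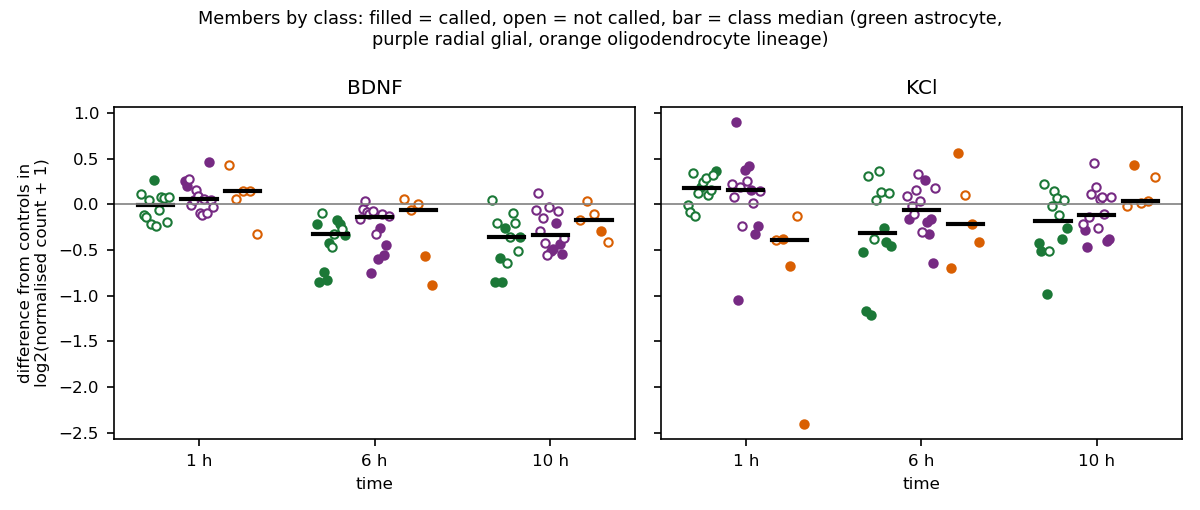
Differences from the controls (log2) over 1, 6 and 10 h for the tested genes of each class, with a point per gene (filled where called) and the class median as a bar, separately for BDNF and KCl. Astrocyte medians reach −0.33 and −0.36 at 6 and 10 h of BDNF, and oligodendrocyte lineage genes are lowest at KCl 1 h, with a median of −0.39.

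The 5 oligodendrocyte lineage genes gave 0 calls by limma with BDNF at 1 h (1, Cspg4, was higher at an unadjusted p below 0.05 and by edgeR and DESeq2), 2 lower at 6 h and 1 lower at 10 h (medians 0.15, −0.06 and −0.17 log2). With KCl they gave 3 lower at 1 h, 3 lower and 1 higher at 6 h, and 1 higher at 10 h (medians −0.39, −0.21 and 0.04 log2). Of all genes tested, 19.0% to 33.4% were called in a given direction in these comparisons. Counts out of 5 genes are too small to set against these shares. The 3 transcription factors Sox10, Olig2 and Olig1 were the ones that fell at KCl 1 h.

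Sox10, which drives the lineage from precursor to myelinating cell, was at 80.9, 125 and 130 normalised counts in the controls. KCl libraries measured 18.5 and 23.5 at 1 h, 104 and 71.8 after 6 h and 166 and 122 after 10 h, and BDNF libraries 77.6 and 109, 70.3 and 54.9, and 102 and 72.7. At KCl 1 h both libraries were far below every control, and at KCl 10 h 1 library lay above and 1 within the control range. It fell by 2.41 log2 (SE 0.21, adjusted p = 3.48e-09) at KCl 1 h and by 0.88 (adjusted p = 0.00202) at BDNF 6 h, and its value at KCl 10 h was 0.31 with no call.

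Olig2, the basic helix-loop-helix factor that specifies the lineage, was at 1681, 1761 and 1813 in the controls and 1261 and 958 at KCl 1 h. It then measured 1991 and 1798 after 6 h and 1813 and 1736 after 10 h of KCl, and 1905 and 2000, 1775 and 1761, and 1730 and 1551 with BDNF. KCl 1 h lay below all controls, and BDNF 1 h above them though without a call. The KCl 1 h difference was −0.68 log2 (SE 0.08, adjusted p = 2.27e-07).

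Olig1, its neighbour and relative, was at 2305, 2404 and 2629 in the controls, 1839 and 1915 at KCl 1 h, 3601 and 3644 after 6 h and 3475 and 3141 after 10 h. With BDNF it was at 2556 and 2542, 2355 and 2339, and 2519 and 2483, within the control range throughout. With KCl it was below all controls at 1 h (−0.38 log2, SE 0.06, adjusted p = 1.4e-05) and above all of them at 6 h (0.57, adjusted p = 3.53e-08) and 10 h (0.44, adjusted p = 2.76e-06).

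Pdgfra, the receptor that marks oligodendrocyte precursors, was at 1300, 1450 and 1496 in the controls, 1505 and 1662, 974 and 949, and 1182 and 1144 with BDNF, and 1453 and 1178, 1316 and 1145, and 1573 and 1368 with KCl. The 4 late BDNF libraries lay below the controls, and the BDNF 1 h pair above them without a call (0.15). It fell by 0.57 log2 (SE 0.08, adjusted p = 1.03e-05) at BDNF 6 h and 0.29 (adjusted p = 0.00829) at 10 h, and by 0.21 (adjusted p = 0.0262) at KCl 6 h. Cspg4 (NG2), the proteoglycan of the same precursors, was at 119, 130 and 154 in the controls, 166 and 189, 149 and 126, and 142 and 95.4 with BDNF, and 85.2 and 117, 105 and 61.4, and 165 and 101 with KCl. At KCl 6 h both libraries lay below the controls, and at 1 h those of BDNF lay above and those of KCl below them without a call. The difference at KCl 6 h was −0.70 log2 (SE 0.20, adjusted p = 0.00547).

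Aldoart1, an aldolase retrogene expressed in testis, was at 354, 376 and 397 in the controls and higher in every stimulated library. It measured 554 and 652, 713 and 711, and 659 and 683 with BDNF, and 457 and 462, 581 and 527, and 667 and 623 with KCl. No stimulated library overlapped the controls, and it rose in all 6 comparisons, by 0.29 log2 at KCl 1 h (adjusted p = 0.00276) to 0.92 at BDNF 6 h (SE 0.07, adjusted p = 2.8e-09). Its parent gene Aldoa had a control mean of 1904 and rose by 0.37 to 0.85 log2 in the same comparisons, and the second copy Aldoart2 by 0.44 to 1.02. Since the 3 genes share much of their sequence, the split of reads among them is uncertain.

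BDNF was also set directly against KCl at the same time. Of the 32 members, 9 were higher and 3 lower with BDNF than with KCl at 1 h (24.6% and 18.2% of all genes), 4 and 6 at 6 h (29.6% and 27.8%), and 2 and 7 at 10 h (23.1% and 21.8%). The 5 oligodendrocyte lineage genes were all higher with BDNF at 1 h, by 0.27 to 2.09 log2 with a median of 0.82, led by Sox10 (adjusted p = 9.76e-07) and Olig2 (0.83, adjusted p = 3.88e-07). At 10 h the order was turned for Sox10 (−0.72, adjusted p = 0.0279), Olig1 (−0.40, adjusted p = 0.000141) and Pdgfra (−0.34, adjusted p = 0.0103). Among radial glial genes, Hes5 and Sox9 were higher with BDNF at 1 h, by 1.05 and 0.79 log2 (adjusted p = 0.000157 and 5.76e-07), and Hes1 lower by 0.63 (adjusted p = 0.0307). Pax6 was lower with BDNF at all 3 times, by 0.54, 0.86 and 0.55 log2 (adjusted p = 0.000314, 6.81e-07 and 0.000298). Id3 was lower with BDNF at 6 h, by 1.08 (adjusted p = 0.0409). The calls of Pdgfra and Hes1 at 1 h, Sox10 at 10 h and Id3 at 6 h were each lost in 2 of 4 fits that left out 1 library. Those of Cspg4 at 1 h and Pdgfra at 10 h were lost in 1.

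The change from 1 h to 10 h within a stimulus was mostly downward. With BDNF, 0 members were higher and 14 lower at 10 h than at 1 h (16.4% and 17.5% of all genes), among them 5 astrocyte, 6 radial glial and 3 oligodendrocyte lineage genes. With KCl, 5 were higher and 11 lower (29.5% and 24.9%), and the higher ones were Sox10, Hes5, Olig1, Olig2 and Aldoart1. Sox9 fell most with BDNF, by 0.90 log2 (SE 0.09, adjusted p = 2.16e-07), and Hes1 with KCl, by 1.37 (SE 0.22, adjusted p = 2.88e-05). The increase of Sox10 with KCl was 2.71 (SE 0.25, adjusted p = 1.89e-08). At an unadjusted p below 0.05 limma found 0 members higher at 10 h of BDNF than at 1 h, and edgeR and DESeq2 called 0 in that direction.

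Genes of related pathways and cell types were read beside the members. Of all genes tested, BDNF gave 21.3% higher and 19.0% lower at 1 h. At 6 and 10 h of BDNF the shares were 22.1% and 21.1%, and 21.1% and 19.5%. With KCl they were 26.5% and 28.2%, 33.4% and 33.1%, and 29.0% and 28.2% at 1, 6 and 10 h. Counts near these shares do not set a list apart from all genes. Of 18 other astrocyte genes, KCl gave 3 higher and 3 lower at 1 h, 0 higher and 13 lower after 6 h, and 0 and 9 after 10 h, while BDNF gave 1 and 0, 1 and 6, and 2 and 7. Among their largest changes at KCl 6 h were those of Cyp4f15, a fatty acid hydroxylase (−1.62 log2), and Itih3 (−1.46 log2). Of 21 other Notch pathway genes, BDNF gave 4 higher and 0 lower, 0 and 6, and 0 and 7, and KCl 5 and 7, 6 and 8, and 5 and 8. Hey1, a further Notch target, rose from 263 to 946 at BDNF 1 h (1.85, adjusted p = 1.99e-11), the coactivator Maml3 rose by 1.54 at KCl 10 h, and Maml2 fell by 1.33 at KCl 1 h.

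Of 19 other BMP and Id genes, BDNF gave 5 higher and 3 lower, 4 and 6, and 3 and 6, and KCl 2 and 7, 7 and 3, and 4 and 4. In these comparisons 19.0% to 33.4% of all genes were called in a given direction. The inhibitory Smad7 rose by 1.33 log2 and the receptor gene Acvr1 by 1.26 at BDNF 1 h, and Smad6 was lower at KCl 1 h (−1.39, from 21.3 to 6.75 normalised counts, a low level). Of 16 other oligodendrocyte lineage genes 10 were tested, with 3 higher and 2 lower, 1 and 5, and 1 and 4 for BDNF and 2 and 3, 1 and 3, and 4 and 3 for KCl. Gpr17, a receptor of committed precursors, fell by 1.98 at BDNF 6 h, the myelin gene Mog by 1.72 at KCl 6 h, and the myelin regulator Myrf rose by 1.49 at BDNF 1 h from 7.52 to 21.3. Enpp6, Neu4, Mag, Mobp and Opalin were too low to test.

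Markers of cycling cells were also called lower mostly at 6 and 10 h, in larger number with KCl than with BDNF. Of 6 such genes, BDNF gave 1 higher and 0 lower at 1 h, 0 and 3 after 6 h and 0 and 3 after 10 h, and KCl gave 1 and 1, 0 and 4, and 0 and 6. Their summed level was 5487 to 8400 normalised counts in the controls, 5190 to 5573 and 5243 to 5470 at 6 and 10 h of BDNF, and 3849 to 4415 and 3965 to 4244 at 6 and 10 h of KCl. The BDNF 6 h range overlapped that of the controls. Of 3 tested intermediate progenitor genes 2 were lower at 6 and 10 h of BDNF and 1 at each time of KCl. Of 14 neuronal genes, BDNF gave 8 higher and 1 lower, 7 and 5, and 5 and 5, and KCl 9 and 1, 9 and 4, and 8 and 4. For all genes tested, the share called in a given direction was 19.0% to 33.4% in these comparisons. Of 10 tested microglial genes the most called in a direction was 2, and of 7 tested vascular and mesenchymal genes it was 4, higher at KCl 1 h, when their summed level was 4007 to 4749. The part of any of these in the glial differences was not tested.

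ATAC-seq held 123 peaks whose nearest start of a protein-coding transcript, within 50 kb, belonged to a member. They lay near 32 members (S100b had none), 121 were tested among 56383 peaks, and 33 overlapped a promoter (1000 bases before to 100 after a start) of 27 members. Values are reads scaled by a LOESS curve against peak strength, and edgeR's quasi-likelihood test with Benjamini-Hochberg adjustment was used at the same threshold, against the 6 control libraries. BDNF against KCl was not tested here.

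With BDNF, 10 member peaks were called higher and 4 lower at 1 h (11.2% and 5.2% of all peaks tested), 3 and 0 at 6 h (7.33% and 2.07%), and 4 and 4 at 10 h (6.23% and 2.04%). With KCl, 4 were higher and 2 lower at 1 h (4.88% and 3.08%), 2 and 4 at 6 h (4.65% and 2.09%), and 4 and 2 at 10 h (4.98% and 2.09%). Out of 121 member peaks these are small counts, and they are not read as a difference from all peaks. The called ones near astrocyte genes were mostly higher, but most were a few peaks near Slc1a3, Aldh1l1 and Slc1a2 counted in several comparisons. Those near radial glial genes were mostly lower. At 1, 6 and 10 h the median over all astrocyte peaks was −0.03, −0.16 and −0.11 log2 with BDNF and −0.05, −0.03 and −0.11 with KCl. Radial glial peaks had medians of −0.10, −0.05 and −0.18, and 0.02, −0.02 and −0.10, so the classes as a whole differed little. Of 40 astrocyte peaks, 6, 2 and 3 were higher and 0 lower at 1, 6 and 10 h of BDNF, and 3, 2 and 3 higher and 1 lower each time with KCl. Of 62 radial glial peaks, BDNF gave 3 higher and 4 lower at 1 h, no call after 6 h and 0 and 4 after 10 h, and KCl 1 and 1, 0 and 3, and 0 and 1. Of the 18 peaks near oligodendrocyte lineage genes edgeR called 0 in all 6 comparisons, with 0 to 2 at an unadjusted p below 0.05, DESeq2 also called 0, and limma called 1, at KCl 6 h.

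The peaks that rose most lay in introns or outside genes, and central stretches of 4 of them are printed because they hold the letters of AP-1, the dimer of Fos and Jun proteins that stimulation induces in neurons. Each line gives 200 bases from the middle of the peak, read from the plus strand of GRCm38, with matches to TGANTCA in capitals.
Slc1a3 intron, chr15:8706996-8707195: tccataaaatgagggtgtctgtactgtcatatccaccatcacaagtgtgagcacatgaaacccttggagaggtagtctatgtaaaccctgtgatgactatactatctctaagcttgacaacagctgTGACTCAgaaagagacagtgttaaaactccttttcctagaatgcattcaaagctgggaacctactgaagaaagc
Aldh1l1 intron, chr6:90529643-90529842: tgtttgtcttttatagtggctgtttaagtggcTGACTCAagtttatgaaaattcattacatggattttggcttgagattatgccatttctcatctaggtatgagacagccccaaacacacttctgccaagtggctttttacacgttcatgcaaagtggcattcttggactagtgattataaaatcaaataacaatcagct
Aldh1l1 intron nearer the start, chr6:90560488-90560687: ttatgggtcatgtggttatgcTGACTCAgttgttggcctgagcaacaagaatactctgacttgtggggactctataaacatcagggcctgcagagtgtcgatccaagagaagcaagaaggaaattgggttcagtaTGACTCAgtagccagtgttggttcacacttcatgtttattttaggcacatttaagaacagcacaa
Slc1a2, beyond the gene, chr2:102807754-102807953: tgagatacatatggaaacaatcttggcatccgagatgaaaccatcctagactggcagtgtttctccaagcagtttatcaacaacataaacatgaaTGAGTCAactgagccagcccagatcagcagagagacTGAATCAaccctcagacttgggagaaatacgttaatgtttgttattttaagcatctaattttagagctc
Of the 12 member peaks called higher in at least 1 comparison, 7 held TGANTCA in the central 200 bases, and of the 13 called lower 0 did. Over all peaks the share was 43.7% of 9831 called higher, 3.62% of 7321 called lower, 7.05% of 39432 called in no comparison and 13.0% of all 56383. The letters in these peaks were compared after the values of the peaks had been seen.

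The Slc1a3 intron peak (chr15:8706961-8707230, 3179 bases from the nearest start) changed most. It held 1.15, 5.94 and 9.42 scaled counts in the lowest, median and highest control, 47.1 and 36.6 at BDNF 1 h, 33 and 37.7 after 6 h and 39.8 and 34.9 after 10 h. With KCl it held 8.47 and 7.64, 19.3 and 20.3, and 9.57 and 7.39. All BDNF libraries and the KCl 6 h pair were above the controls, and those of KCl 1 h lay within their range. Accessibility rose by 2.91 log2 (SE 0.40, adjusted p = 1.63e-09), 2.68 (adjusted p = 7.12e-08) and 2.75 (adjusted p = 3.81e-07) with BDNF and by 1.83 (adjusted p = 0.0115) at KCl 6 h, the last lost without library A of that group (adjusted p = 0.221). Slc1a3 RNA in these groups differed from the controls by 0.07, −0.21 and −0.20 log2 with BDNF and −0.41 at KCl 6 h.

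The promoter peak of Slc1a3 (chr15:8710211-8710876) instead rose at KCl 1 h, to 74.4 and 103 scaled counts from 36.3 to 49.7 in the controls (1.08 log2, adjusted p = 0.000684), a call lost without library B of that group. A peak 6152 bases upstream was higher at BDNF 1 and 10 h and KCl 1 h, by 0.75, 0.62 and 0.64 log2. Its BDNF 10 h value was 0.22 without library A of that group (adjusted p = 0.785 by edgeR), and its KCl 1 h call was lost without library B. The 2 Aldh1l1 intron peaks shown above rose with BDNF, the one at 90529494 by 0.98, 1.15 and 1.08 log2 at 1, 6 and 10 h, from 26.2 to 52.6 scaled counts in the controls to 75.8 to 92.1. The one at 90560485 rose at 1 h by 2.21, to 41.9 and 43.8 from 7.08 to 16.2, and both were also higher at KCl 10 h (0.78 and 1.42). The KCl 10 h calls, and that of the former peak at BDNF 10 h, were lost when 1 library of the group was left out. The Slc1a2 peak, 46537 bases from the nearest start, rose at BDNF 1 h (1.25) and at 1, 6 and 10 h of KCl (1.04, 1.27 and 1.44). The 3 KCl calls were each lost without 1 library, with 0.77 at 1 h and 0.55 at 6 h without library A (adjusted p = 0.387 and 0.709 by edgeR) and 1.17 at 10 h without library B (adjusted p = 0.139). A peak 9222 bases from Aldoart1 held 1.41 to 12.8 scaled counts in the controls and rose by 1.98, 2.35 and 2.43 log2 with BDNF and by 2.58 at KCl 10 h. Without library A of the group its call was lost at BDNF 1 h (1.21, adjusted p = 0.36 by edgeR), BDNF 10 h (1.74, adjusted p = 0.206) and KCl 10 h (1.87, adjusted p = 0.186).

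Other called promoter peaks moved by less. Those of Clu, Id1 and Vim were higher at BDNF 1 h by 0.77, 0.49 and 0.33 log2, that of Dbi was lower at BDNF 10 h (−0.30), that of Ptprz1 at KCl 6 h (−0.87) and that of Slc1a2 at KCl 10 h (−0.51). Near Hes1, a peak 42021 bases away was lower at KCl 6 h (−1.03), 1 at 5655 bases was lower at BDNF 10 h (−1.23) and 1 at 4766 bases was higher at BDNF 1 h (0.80), and its 2 promoter peaks passed in none of the comparisons. Each of these promoter and Hes1 calls was lost in at least 1 fit that left out 1 library. The Dbi value was −0.19 without library B of BDNF 10 h, and the Vim call was also lost with TMM scaling, DESeq2 and limma (adjusted p = 0.225, 0.322 and 0.275). The 1 peak nearest Sox10, 27807 bases away, differed from the controls by 0.13 log2 at KCl 1 h (adjusted p = 0.79), when Sox10 RNA was at its lowest.

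**Figure D5:**
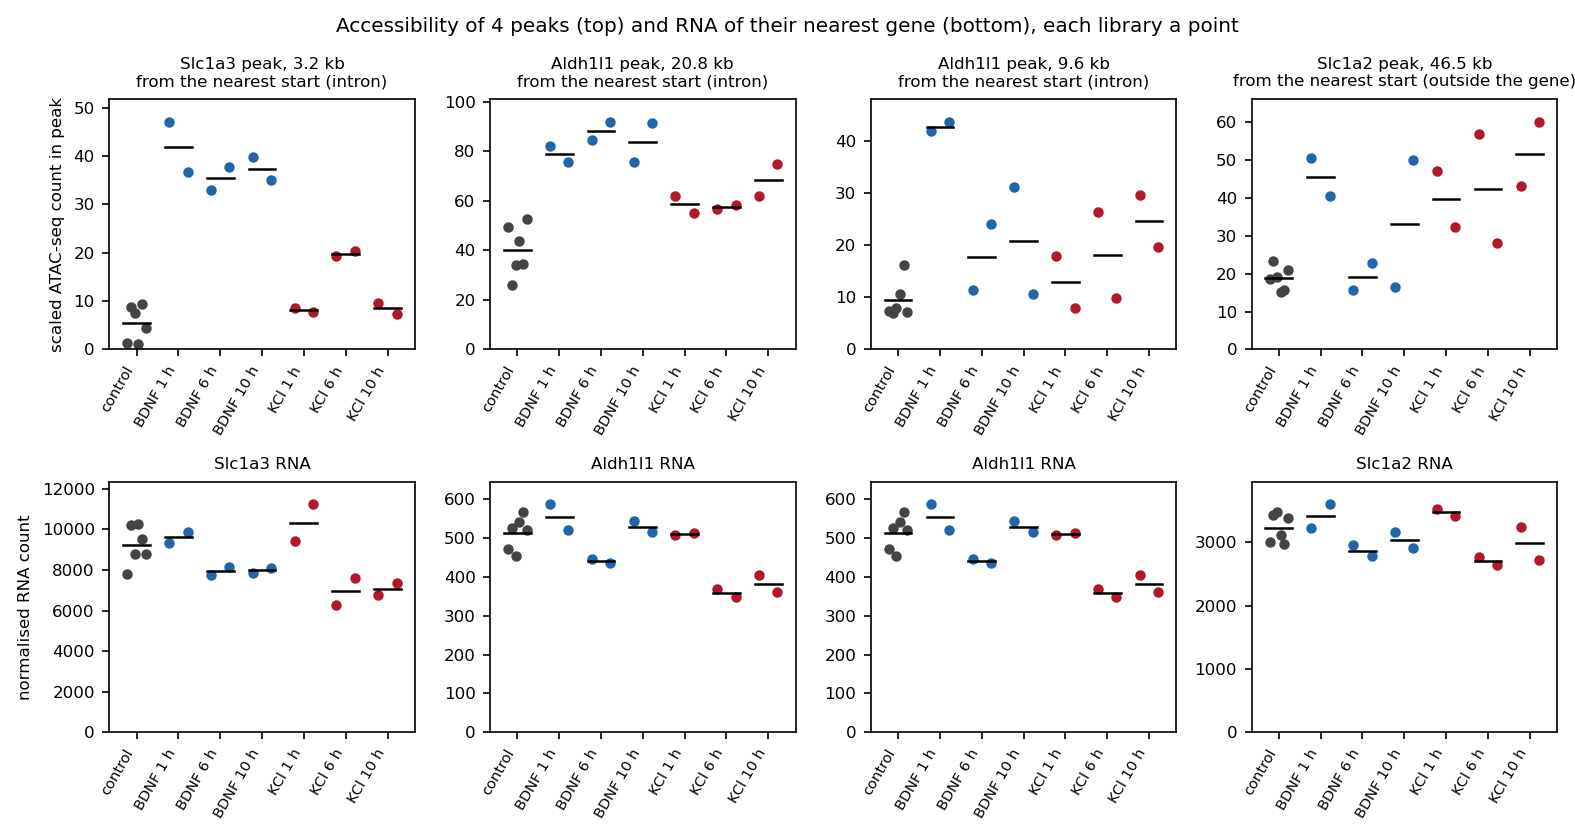
Scaled ATAC counts of 4 member peaks (top, vertical axes from 0) and normalised RNA counts of their nearest genes (bottom), as points for each library of the controls and of BDNF and KCl at 1, 6 and 10 h, with group means as lines. In the Slc1a3 intron peak the 6 BDNF libraries lie between 33 and 47.1 and all controls at 9.42 or below.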

How the data were processed

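RNA and accessible chromatin were read in 18 libraries each. Per the labels and methods, the authors trimmed reads with Trimmomatic. RNA was aligned with TopHat2 to mm10 (GRCm38) with GENCODE M16 genes, while for the read counter and its use of strand nothing is given in the sources used here. Next, the authors deposited an RNA signal per gene, namely reads divided by DESeq2 size factors, and whole reads could be recovered for all values within 0.01. ATAC reads were aligned with Bowtie2, peaks called per sample with MACS2, and the deposited counts per peak made with DiffBind over 58177 peaks. Tables of the authors' own comparisons (log2 fold changes, standard errors, scores, p-values) were used only for gene symbols.

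From these, limma 3.58.1 (R 4.3.3; trend, robust, two-sided) was fitted to log2(value + 1) over all 18 RNA libraries in 7 levels, with genes of mean at least 10, so that differences of low genes are understated. For ATAC, edgeR 4.0.16 was fitted to the counts with LOESS offsets (span 0.3) in 7 levels, for 56383 peaks of mean at least 10. Adjusted p is Benjamini-Hochberg over all features tested. The scripts were tested on simulated data. Groups came from the labels. Letters A and B name table columns and appear in no label. The labels do not say whether libraries of a group came from separate cultures, so p-values measure the spread between these libraries, and with 2 per stimulated group the precision is limited. Counts of replicate libraries differed by 2.04 to 36.4 times sampling noise (chi-square per degree of freedom), so none was a duplicate.

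The members and lists were chosen with earlier results of these data known. All members are named. Values in full are given for the 4 members of each class with the largest difference from the controls and for Gfap, Slc1a3, Fabp7, Vim, Pdgfra and Olig2, and at most 3 tested genes are named of every other list for their changes. Beyond this rule, Pax6, Sox9 and Aldoart1 are given in full, and genes of other lists that were too low to test are named. Alternatives were DESeq2 1.42.0, edgeR with TMM scaling, pseudocounts of 0.5 and 5, other filters, an adjusted p below 0.01, controls of the same time only, the replicate block and leaving out each library. For ATAC, TMM scaling, limma and a limit of 20 kb were used as well. Gene positions and exon lengths came from GENCODE M21 and promoter sequences from RefSeq (GRCm38.p6), and no sequence was read for genes with no entry there.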

Additional observations from a re-analysis of the deposited data

Results flagged for a closer look

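The difference between 10 h and 1 h of the same stimulus was tested directly for every tested member, and limma's adjusted p passed the threshold for 30 values. No control level entered this difference, so it compares the levels at 10 h and 1 h. Whether the difference from controls of the same time changed between 1 h and 10 h was not tested. Between control 10 h and control 1 h the members differed by −0.16 to 0.36 log2, without a call. No group of 6 control libraries held an outlying library by Dixon's test for these genes, in which chance marks about 1 in 20 groups.

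With BDNF, 14 members were lower at 10 h than at 1 h. The differences in log2 were −0.90 for Sox9, −0.74 for Aqp4, −0.64 for Gfap, −0.60 for Cspg4, −0.59 for Ttyh1, −0.57 for Hes1, −0.53 for Glul, −0.44 for Pdgfra, −0.44 for Sparcl1, −0.37 for Pax6, −0.31 for Dbi, −0.27 for Ptprz1, −0.27 for Slc1a3 and −0.25 for Olig2. Sox9 and Glul went from above the controls at 1 h to below them at 10 h. The calls of Gfap, Hes1 and Slc1a3 were lost in all 4 fits that left out 1 library of the pair of groups. Those of Cspg4, Dbi and Olig2 were lost in 3 of the 4, Aqp4 and Ptprz1 in 2 and Pax6 in 1.

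With KCl, 11 members were lower at 10 h than at 1 h. The differences were −1.37 for Hes1, −0.86 for Gfap, −0.62 for Sparcl1, −0.54 for Slc1a3, −0.52 for Notch1, −0.45 for Dbi, −0.41 for Aldh1l1, −0.37 for Fabp7, −0.36 for Pax6, −0.22 for Slc1a2 and −0.22 for Glul. The 5 that were higher were Sox10 (2.71), Hes5 (0.92), Olig1 (0.82), Olig2 (0.69) and Aldoart1 (0.49). Hes1 and Hes5, both Notch targets, thus differed in opposite directions, and 3 oligodendrocyte lineage factors were higher at 10 h than at 1 h. The Notch1 call was lost in 3 of 4 fits that left out 1 library. Those of Slc1a2 and Glul were lost in 2 and those of Dbi and Pax6 in 1.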

How the results depend on the processing

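Of 135 calls of members in 11 comparisons, 83 held in every fit that left out 1 library and 52 were lost in at least 1. DESeq2 lost 2 of the 135 calls, edgeR with TMM scaling 5, no filter on low values 11, each other pseudocount 1, and a mean of at least 50 none. With controls of the same time 18 of 74 calls were lost. The value of Fabp7 at KCl 6 h turned from −0.16 to 0.0086 without library A of that group, and leaving out other libraries it reached −0.34.

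With an adjusted p below 0.01 the member calls were 3 at BDNF 1 h (5 as reported), 11 at KCl 6 h (17), 7, 6 and 4 for BDNF against KCl at 1, 6 and 10 h (12, 10 and 9) and 5 for BDNF 10 h against 1 h (14). With controls of the same time BDNF 1 h had 3. Leaving out 1 library gave 3 to 6 calls for BDNF 1 h, 7 to 10 for BDNF 10 h against 1 h and 5 to 8 for BDNF against KCl at 10 h.

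For ATAC peaks an adjusted p below 0.01 left 6 calls at BDNF 1 h (14 as reported), 3 at BDNF 10 h (8), and 2, 2 and 3 at KCl 1, 6 and 10 h (6 each). Controls of the same time left 2 at BDNF 10 h and 1 at KCl 10 h. BDNF 6 h (3) had 7 with DESeq2, 6 with TMM scaling, 6 with limma and 5 without a filter, and KCl 6 h had 11 with TMM scaling and 3 within 20 kb. Leaving out 1 library gave 8 to 14 at BDNF 1 h, 3 to 5 at BDNF 6 h, 3 to 11 at BDNF 10 h, 2 to 7 at KCl 1 h, 0 to 9 at KCl 6 h and 2 to 7 at KCl 10 h. Without library A of KCl 6 h edgeR called 0 member peaks there, with 14 at an unadjusted p below 0.05. The library left in that fit, KCl 6 h B, was the shallowest in ATAC-seq, with 1241829 reads in peaks against a median of 3553183. The part of depth was not tested.

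With the letter of the table column as a replicate block, member calls numbered 5, 17 and 14 at 1, 6 and 10 h of BDNF, and for KCl 14, 18 and 12, and 1 call was lost, Nes at KCl 1 h. The calls gained against the controls were Mlc1 at BDNF 6 h, Mlc1 and Slc1a3 at BDNF 10 h, Dbi and Slc1a3 at KCl 1 h, Notch1 at KCl 6 h and Gja1 at KCl 10 h. The letters are in no label, and deviations of same-letter libraries correlated from −0.31 to 0.42 over 36 pairs of groups, above 0.1 in 13 and below −0.1 in 6, each of the 6 with control 10 h. In pairs without control 10 h the lowest correlation was −0.08. Of the members, 7 were higher in B in 8 of 9 groups (Gpc4, Sparc, Id3, Clu, Gja1, Mlc1 and Slc1a3). As no label gives the letters, they were not used to pair libraries in the main fit. Whether libraries of the same letter belong together is not known. With 2 libraries per stimulated group and small ATAC counts, small differences were not detectable.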
